A study of Mus musculus with 18 samples.

Results

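Glucose transporters, enzymes of glycolysis and genes induced by low oxygen were followed in mouse embryonic stem cells differentiating with or without thalidomide. The set held 10 genes, chosen by gene name with earlier results of these data known. It held the glucose transporters Slc2a1 and Slc2a3 and the glycolytic enzymes Hk2, Pfkp, Aldoa, Pgk1 and Ldha. The others were the pyruvate dehydrogenase kinase Pdk1, the mitophagy receptor Bnip3 and the oxygen-sensing prolyl hydroxylase Egln3. Of the 10 genes, 9 had a probe set of their own among the 22180 genes measured. Aldoa shared its probe set with Aldoart1, an aldolase retrogene, and no value is given for either. The cells were of strain C57BL/6, with no genetic change given in the labels, and grew as embryoid bodies, which are floating aggregates that form early derivatives of the germ layers. Exposed cultures received 0.25 mM thalidomide (THD) from day 3 of that stage for 24, 48 or 72 h. Control cultures received 0.25% DMSO as vehicle per the treatment protocol, although the series description calls them unexposed and their source names count hours after embryoid body formation. Each of the 6 groups held 3 arrays, called biological replicates in the labels, and p-values measure the spread between those arrays.

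Cells take up glucose through transporters of the SLC2 family. Hexokinase traps it as glucose 6-phosphate, phosphofructokinase commits it to glycolysis, phosphoglycerate kinase yields ATP, and lactate dehydrogenase A turns pyruvate into lactate. The hypoxia-inducible factors (HIF) are transcription factors whose alpha subunits are hydroxylated by the EGLN enzymes and degraded when oxygen is present. When oxygen is low they bind DNA at a short core, ACGTG or GCGTG, near target genes that include most of the genes studied here. Pluripotent cells rely strongly on glycolysis, and the balance with mitochondrial respiration shifts as they differentiate.

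Values are log2 signals of 1 probe set per gene, so a difference of 1 is a doubling, and changes of single genes are given as exposed minus control ± SE from limma. Signals are not compared between genes, because probe sets differ in how brightly they bind. Replicate arrays of a group correlated across genes at r = 0.992 to 0.996. A re-analysis tag stands in the titles of 12 arrays, namely every control and every exposed array of 24 h, so tag and exposure cannot be told apart at 48 and 72 h. Within the exposed course the tag is on the 24 h arrays alone, so tag and time cannot be told apart there, nor in a difference between the exposure effects at 24 h and a later time. In bulk RNA, fewer cells of a type and less RNA per cell cannot be told apart either.

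Of the 9 measured genes, 1 passed the test under thalidomide, the neuronal-type high-affinity transporter Slc2a3, which was higher after 24 and 48 h and near the control level after 72 h. At 24 h, 1 of 9 genes passed an adjusted p of 0.05 and it was higher, where 6.86% of all genes passed in either direction, 1.42% as higher and 5.43% as lower. At 48 h the count was again 1 of 9, against 6.08% of all genes, 1.85% as higher. At 72 h limma called 0 of 9, against 0.00902% of all genes, and 1 of the 9 (Pdk1) had an unadjusted p under 0.05, against 9.12% of all genes. The median change of the 9 was -0.14 at 24 h, -0.00 at 48 h and -0.06 at 72 h, beside -0.01, 0.01 and 0.00 over all genes. Over the brightest of 4 equal groups of genes ranked by mean signal, which holds 5 of the 9, the medians were -0.08, -0.06 and -0.02.

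**Figure D1:**
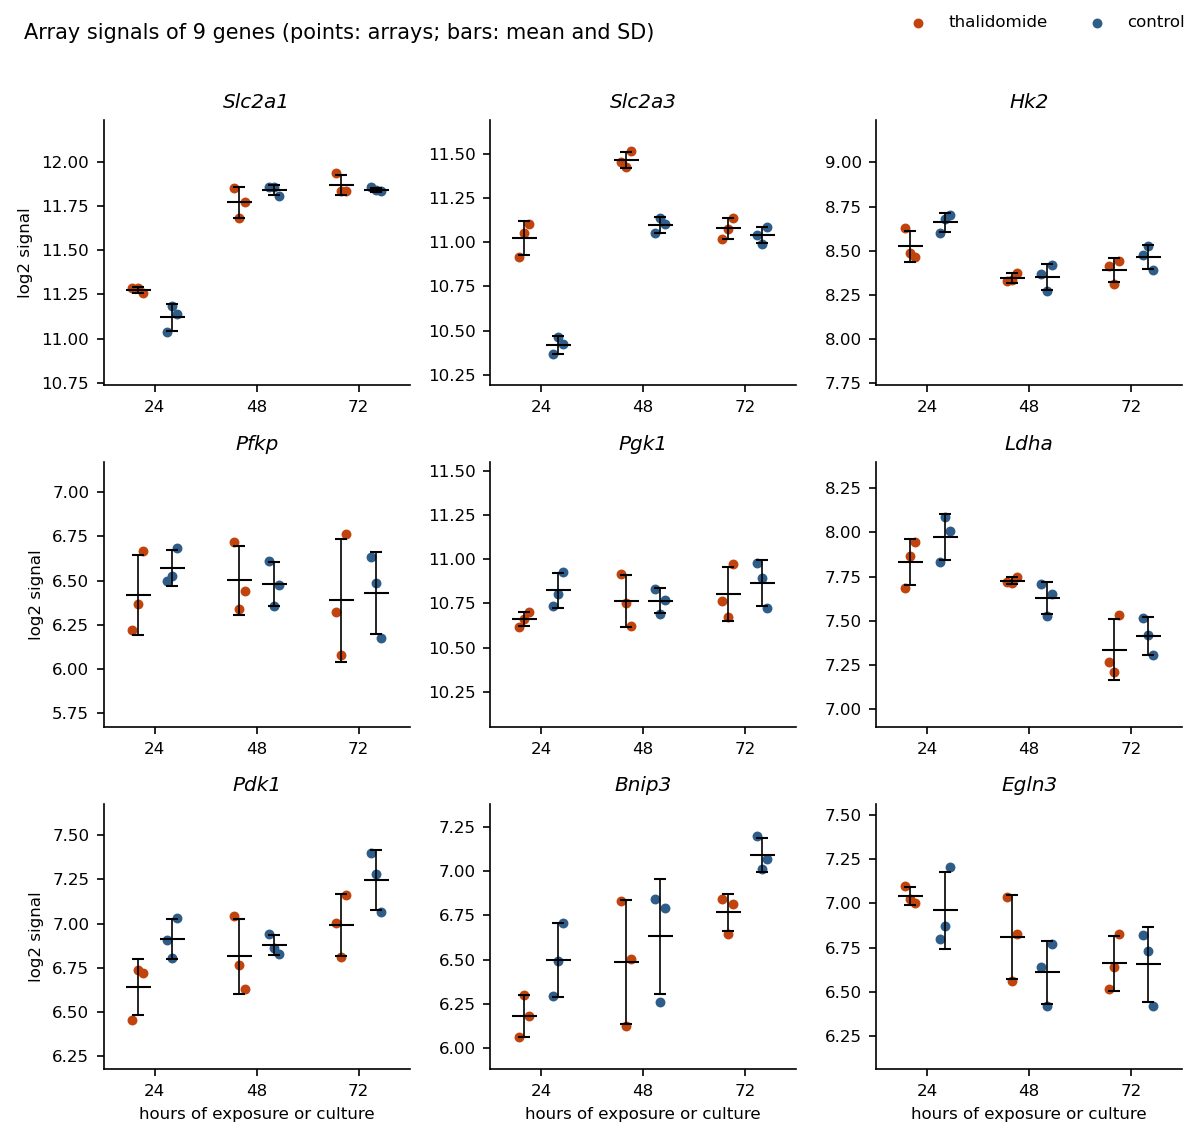
Log2 signal (vertical axis, 1 panel per gene) of each array in exposed and control embryoid bodies at 24, 48 and 72 h (horizontal axis). Points are arrays, and bars are the mean and SD of 3 arrays. For Slc2a3 the exposed arrays lie above the controls at 24 and 48 h and among them at 72 h.

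Slc2a3, which encodes GLUT3, had log2 signals of 10.92, 11.05 and 11.10 in exposed embryoid bodies at 24 h, against 10.36, 10.47 and 10.42 in controls. All exposed arrays were above all controls, a pattern that 9.23% of genes showed at this time. The change was 0.61 ± 0.06, or 1.52-fold, with an adjusted p of 0.000136, and it ranked 25 by size among the 316 genes called higher. Primitive streak markers also stood apart at 24 h: the 4 measured summed to 31.3 to 31.9 in exposed arrays and 32.6 to 32.9 in controls, all 4 changes lay between -0.50 and -0.13, and none was called. Their part in the Slc2a3 values was not tested. The exposed mean at 24 h, 11.02 ± 0.10, lay close to the control mean at 48 h, 11.10 ± 0.04 (SD, n = 3 each). For Slc2a1 the same means lay apart, at 11.28 ± 0.02 and 11.84 ± 0.03.

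At 48 h Slc2a3 had 11.45, 11.43 and 11.51 in exposed arrays and 11.05, 11.14 and 11.10 in controls. The groups again did not overlap, as for 12.3% of genes in that direction, and the change was 0.37 ± 0.06, or 1.29-fold, with an adjusted p of 0.00452. The 4 primitive blood markers summed to 17.69 to 18.02 in exposed arrays at this time and 16.92 to 17.46 in controls, with none called. These markers were dim: the sum covers 4 genes, and the median of all probe sets was 5.37 to 5.46 per array. In controls 0 of the 4 rose and 1 fell between 24 and 72 h. Their part in the Slc2a3 values was not tested. The Slc2a3 call was lost when the fit held the arrays of that time alone (adjusted p = 0.0517), the highest adjusted p of its 15 alternatives. At 72 h the exposed arrays gave 11.02, 11.08 and 11.14 and the controls 11.04, 10.99 and 11.08. Here the groups overlapped, and the change was 0.04 with a 95% interval from -0.10 to 0.17 (adjusted p = 0.925).

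The exposure effect on Slc2a3 was smaller at 72 h than at 24 h by a direct test: the difference between the effects was -0.57 ± 0.09, with an adjusted p of 0.0150. It was called for 1 of the 9 genes and for 0.496% of all genes. The 95% interval of that difference ran from -0.76 to -0.38. The call was lost when the fit held the arrays of those times alone (adjusted p = 0.0573), with a replicate block within time (adjusted p = 0.114) and without control replicate 3 of 72 h, where the difference was -0.54 with an adjusted p of 0.0569. Over its 21 alternatives, the adjusted p was at most 0.114. Between 24 and 48 h, and between 48 and 72 h, the effect differed by -0.24 (adjusted p = 0.553) and by -0.33 (adjusted p = 0.121), neither past the threshold, where 0.0947% of all genes were called for the later pair of times and 0% for the earlier.

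Slc2a1 encodes GLUT1, the transporter of basal glucose uptake in most tissues. Its signals at 24 h were 11.29, 11.28 and 11.26 in exposed arrays and 11.04, 11.19 and 11.14 in controls. The exposed arrays were all higher, as for 9.23% of genes. The change of 0.16 ± 0.06 did not pass the threshold (adjusted p = 0.150, between 0.0201 and 0.695 over 15 alternatives). A second, far dimmer probe set of Slc2a1 ran the other way at 24 h, with means of 5.43 in exposed arrays and 5.69 in controls. The mean of both probe sets differed by -0.06. At 48 and 72 h the changes were -0.07 and 0.03, with overlapping groups.

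Of the 10 chosen genes, the 4 measured glycolytic enzymes (Hk2, Pfkp, Pgk1 and Ldha) did not pass the threshold at any time, and all 4 changes at 24 h were below 0. Hk2, the inducible hexokinase of growing cells, had 8.63, 8.49 and 8.47 in exposed arrays at 24 h and 8.60, 8.68 and 8.70 in controls, a change of -0.14 with a 95% interval from -0.28 to 0.01. Pfkp, a phosphofructokinase subunit, had 6.22, 6.37 and 6.66 in exposed arrays and 6.50, 6.52 and 6.69 in controls, a change of -0.15 with an interval from -0.49 to 0.19. For both genes the groups overlapped, and at 48 and 72 h the changes lay between -0.07 and 0.02.

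Pgk1, phosphoglycerate kinase, had 10.62, 10.66 and 10.70 in exposed arrays at 24 h and 10.74, 10.80 and 10.93 in controls. The exposed arrays were all lower, as for 15.9% of genes, and the change of -0.16 did not pass (adjusted p = 0.339). Ldha had 7.69, 7.87 and 7.94 in exposed arrays and 7.83, 8.09 and 8.01 in controls, a change of -0.14 with an interval from -0.35 to 0.06. At 48 h Ldha had 7.718, 7.712 and 7.748 in exposed arrays and 7.706, 7.529 and 7.649 in controls. The exposed arrays were all higher, as for 12.3% of genes, but the lowest, 7.712, was barely above the highest control, 7.706. That change of 0.10 did not pass either (adjusted p = 0.582). At 72 h Pgk1 and Ldha changed by -0.06 and -0.08, with overlapping groups.

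Pdk1 encodes a kinase that switches off pyruvate dehydrogenase. It had 6.46, 6.74 and 6.72 in exposed arrays at 24 h and 6.91, 6.80 and 7.03 in controls. The exposed ones were all lower, as for 15.9% of genes. The change of -0.27 ± 0.12 had an unadjusted p of 0.0345 and an adjusted p of 0.191. At 72 h the exposed arrays gave 7.00, 6.81 and 7.16 and the controls 7.40, 7.28 and 7.06, a change of -0.26 with an adjusted p of 0.539. The groups overlapped at 72 h, and at 48 h, where the change was -0.06.

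Bnip3 encodes a receptor on the mitochondrial outer membrane that marks mitochondria for autophagy. At 72 h it had 6.84, 6.65 and 6.81 in exposed arrays and 7.20, 7.01 and 7.07 in controls, with no overlap, as for 7.51% of genes in that direction. The change of -0.33 ± 0.17 did not pass (adjusted p = 0.599). At this time the summed log2 signal of the 6 heart muscle markers was 41.9 to 48.2 in exposed arrays and 51.1 to 51.4 in controls, with none of them called. That of the 4 endothelial markers was 27.0 to 30.9 in exposed arrays and 31.5 to 32.5 in controls, again with none called. The 3 neural progenitor markers went the other way, at 19.9 to 22.1 in exposed arrays and 17.8 to 19.7 in controls. Their changes lay between 0.37 and 0.94, with none called. Across 8 marker lists, 16 of 36 measured genes had an unadjusted p under 0.05 at 72 h, against 9.12% of all genes, and their part in the Bnip3 values was not tested. At 24 h Bnip3 changed by -0.32 with overlapping groups (adjusted p = 0.290).

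Egln3, which hydroxylates HIF alpha subunits and is itself induced by HIF, had 7.10, 7.02 and 7.00 in exposed arrays at 24 h and 6.80, 6.87 and 7.21 in controls. Its changes of 0.08, 0.20 and 0.00 at 24, 48 and 72 h came with overlapping groups. The 95% interval that reached farthest from 0 was that of 48 h, from -0.10 to 0.49.

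**Figure D2:**
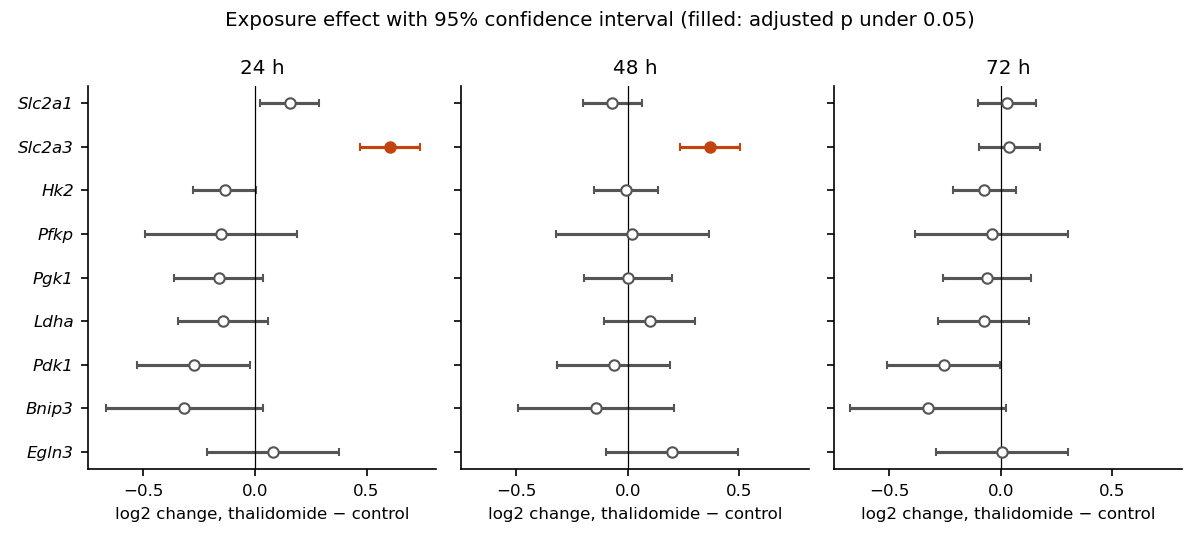
Exposed minus control change in log2 signal (horizontal axis) of the 9 genes (rows) at 24, 48 and 72 h. Points are limma estimates from 3 arrays against 3, lines are 95% intervals, and filled points passed an adjusted p of 0.05. Slc2a3 is filled at 24 and 48 h, at 0.61 and 0.37.

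The rest of the pathway, 79 measured genes in 5 lists, gave few calls under exposure. At 24 h 1 rose and 3 fell, or 5.06% of the 79, and at 48 h 0 rose and 4 fell, again 5.06%, beside the 6.86% and 6.08% of all genes given above. At 72 h limma called 0 of 79, and 4 of them, 5.06%, had an unadjusted p under 0.05, against 9.12% of all genes. The median change of the 79 was -0.02, 0.00 and -0.03 at 24, 48 and 72 h. Among the 13 other hexose and lactate transporters, 0 were called at any time.

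Of the 4 genes called at 24 h, 3 were in oxygen sensing, where 1 of 12 rose and 2 fell. Over all genes 1.42% were called higher and 5.43% lower at this time, and the list was chosen with earlier results known. Epas1, which encodes HIF-2 alpha, had 8.09, 8.14 and 8.44 in exposed arrays and 7.77, 7.56 and 7.86 in controls. The change was 0.49 ± 0.12, with an adjusted p of 0.0217, and at 48 and 72 h it was -0.11 and 0.24, neither called. Egln1, the main HIF prolyl hydroxylase and also 1 of the 24 measured hypoxia targets, had 7.08, 7.02 and 7.13 in exposed arrays and 7.34, 7.51 and 7.55 in controls, a fall of -0.39 ± 0.09 (adjusted p = 0.0203). Siah1a, a RING ubiquitin ligase, fell by 0.46 (adjusted p = 0.0296), and Aldoc, the brain-type aldolase and 1 of 20 other glycolysis enzymes, fell by 0.36 (adjusted p = 0.0232).

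Each of these 4 calls was lost when any 1 of several arrays was left out. Each was also lost with the arrays of that time alone (adjusted p = 0.0837 to 0.148). Epas1 was not called without exposed replicate 3, control replicate 1 or control replicate 2 (changes of 0.39 to 0.51). Egln1 was not called without exposed replicate 1 or 2 or control replicate 2 or 3 (changes of -0.39 to -0.34). Siah1a lost its call without exposed replicate 1 or control replicate 1 or 3 (-0.43 to -0.30), and Aldoc without exposed replicate 1 or 2 or control replicate 2 or 3 (-0.36 to -0.30).

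At 48 h the 4 calls were in other genes. Cited2, which competes with HIF for its coactivators, had 9.87, 9.82 and 9.74 in exposed arrays and 10.17, 10.30 and 10.20 in controls, a change of -0.41 with an adjusted p of 0.00947. This call was kept in 14 of 15 alternatives, and the adjusted p was 0.0508 with the arrays of that time alone, the highest of the 15. Pfkm, the muscle-type phosphofructokinase subunit, changed by -0.36 (adjusted p = 0.0218) and was not called without exposed replicate 2 or 3 or control replicate 3 (-0.35 to -0.27). Mpc1, a subunit of the mitochondrial pyruvate carrier, changed by -0.58 (adjusted p = 0.0366), and by -0.20 when its probe sets were averaged. The kinase Pdk2 changed by -0.35 (adjusted p = 0.0377). Leaving out any 1 of the 6 arrays ended the calls of Mpc1 (-0.65 to -0.50) and of Pdk2 (-0.37 to -0.31), which held in 5 and 4 of 15 alternatives.

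Several textbook members of the pathway gave small changes under exposure. Hif1a, the HIF-1 alpha subunit, changed by 0.04, 0.09 and -0.07 at 24, 48 and 72 h, with no interval reaching beyond 0.22 in either direction. Pkm, the pyruvate kinase of embryonic cells, changed by 0.01, 0.13 and -0.04. Gapdh changed by -0.00, 0.00 and -0.01, and its intervals stayed between -0.13 and 0.12. Vegfa, the angiogenic growth factor induced by HIF, changed by 0.13, 0.11 and -0.13, and the lactate exporter Slc16a3 by -0.09, -0.04 and -0.24. None of these passed the threshold.

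**Figure D3:**
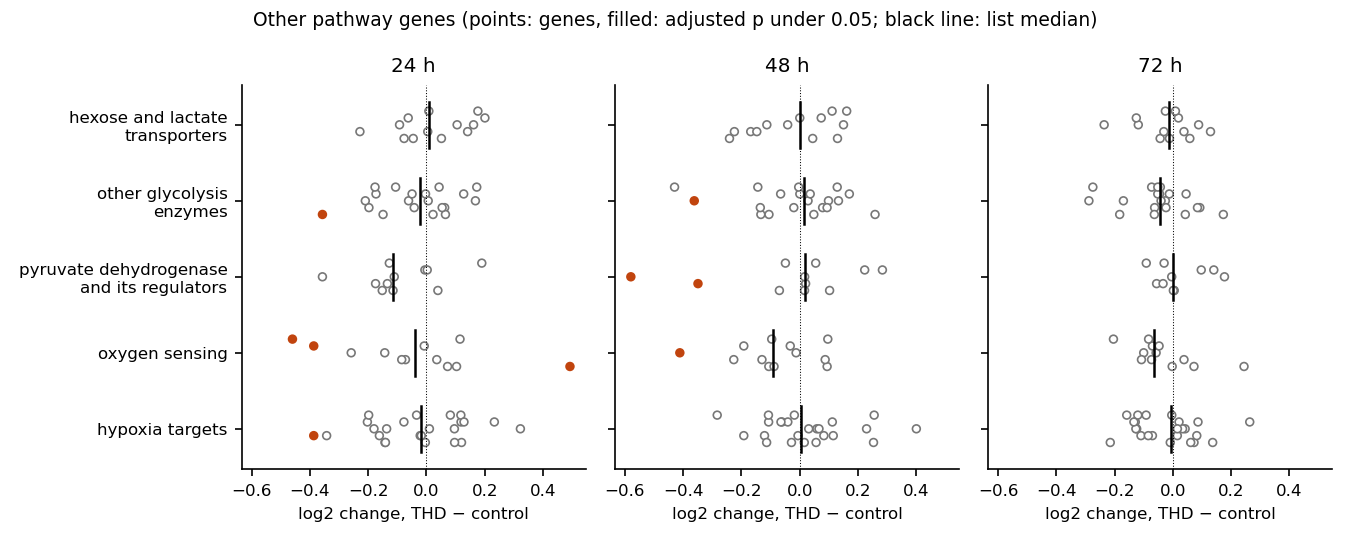
Exposed minus control change in log2 signal (horizontal axis) of every measured gene in the 5 pathway lists (rows) at 24, 48 and 72 h. Points are genes, filled where the adjusted p was under 0.05 and spread vertically for legibility, and black lines are list medians. Most points lie near 0, and the one filled point above 0 is Epas1 at 24 h, at 0.49.

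More of these genes were called over time in culture than under exposure. In controls between 24 and 72 h, 4 of 9 genes rose (Slc2a1, Slc2a3, Pdk1 and Bnip3) and 2 fell (Ldha and Hk2), where 27.5% of all genes were called, 13.1% as higher and 14.3% as lower. In exposed embryoid bodies 3 rose (Slc2a1, Pdk1 and Bnip3) and 1 fell (Ldha), where 25.1% of all genes were called. Over the same hours 5 of 6 heart muscle markers and 4 of 4 endothelial markers rose in controls. Of 8 pluripotency markers 5 fell and 1 rose, and 4 of 4 measured primitive streak markers fell. Of all 36 measured markers 14 rose and 13 fell, and their part in the members' courses was not tested.

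The promoters of 3 genes with different courses are shown because each is a known HIF target, while Slc2a1 and Bnip3 rose and Ldha fell. Each runs from 250 bases before to 50 after the transcription start in RefSeq on build GRCm38.p6. Capitals mark the cores ACGTG and GCGTG on the printed strand, or CACGT and CACGC where the core lies on the other strand. The palindrome CACGTG holds an ACGTG core on each strand, and these overlap.
Slc2a1, chr4:119108495-119108794, plus strand: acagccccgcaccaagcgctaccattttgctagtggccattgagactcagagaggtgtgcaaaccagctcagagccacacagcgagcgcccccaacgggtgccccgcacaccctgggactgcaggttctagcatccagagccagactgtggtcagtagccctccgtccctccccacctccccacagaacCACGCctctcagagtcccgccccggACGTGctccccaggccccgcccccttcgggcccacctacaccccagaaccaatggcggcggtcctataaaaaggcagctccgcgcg
Bnip3, chr7:138909457-138909756, minus strand: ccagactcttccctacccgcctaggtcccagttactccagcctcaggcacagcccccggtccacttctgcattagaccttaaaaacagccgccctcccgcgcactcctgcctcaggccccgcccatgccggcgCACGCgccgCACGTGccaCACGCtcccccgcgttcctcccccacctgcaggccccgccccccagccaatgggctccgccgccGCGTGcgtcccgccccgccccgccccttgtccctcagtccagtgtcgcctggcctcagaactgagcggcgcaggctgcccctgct
Ldha (upstream of 2 start sites), chr7:46845554-46845853, plus strand: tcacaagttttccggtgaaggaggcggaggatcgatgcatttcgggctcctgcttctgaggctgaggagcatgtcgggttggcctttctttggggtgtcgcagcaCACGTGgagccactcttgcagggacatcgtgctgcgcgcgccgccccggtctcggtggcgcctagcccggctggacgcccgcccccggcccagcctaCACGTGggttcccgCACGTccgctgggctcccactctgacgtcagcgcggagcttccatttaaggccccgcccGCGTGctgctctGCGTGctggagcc
Slc2a1 held 1 ACGTG and 1 GCGTG core, at positions -36 and -61 from the start. Bnip3 held 2 ACGTG cores in 1 palindrome and 3 GCGTG cores, and Ldha held 5 ACGTG cores, 4 of them in 2 palindromes, and 2 GCGTG cores. Promoters were in the table for 9 of the 10 genes, all but Slc2a3, and all 9 held a core of either kind on either strand in at least 1 window, 7 of them ACGTG. Since some genes have several start sites, the count per window was 11 of 13 with either core and 8 of 13 with ACGTG. Windows can overlap, and the ACGTG cores of Aldoa start sites 2 and 3 are the same bases. Among 32851 mouse promoters of that length, 43.8% held either core, 19.6% ACGTG and 32.4% GCGTG. The windows of the chosen genes held 40.3 to 71.7% G and C, and these shares were not matched for base composition. A match is a description of the letters and not a site in use, and genes with cores both rose and fell.

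Both transporters rose early in controls. Slc2a1 averaged 11.12 ± 0.08 at 24 h, 11.84 ± 0.03 at 48 h and 11.84 ± 0.01 at 72 h (SD, n = 3 each), and its change by 48 h was 0.72 (limma adjusted p = 8.04e-07). Slc2a3 averaged 10.42 ± 0.05 at 24 h, 11.10 ± 0.04 at 48 h and 11.04 ± 0.05 at 72 h, and its change by 48 h was 0.68 (adjusted p = 2.13e-06). At 48 h 4 of 9 genes were called in controls, where 13.6% of all genes were, and between 48 and 72 h limma called 0 of 9, where 6.53% of all genes were called and 3 of the 9 (Pdk1, Bnip3 and Ldha) had an unadjusted p under 0.05.

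In exposed embryoid bodies both transporters also rose by 48 h, and Slc2a3 then fell. Slc2a1 averaged 11.28 ± 0.02 at 24 h, 11.77 ± 0.09 at 48 h and 11.87 ± 0.06 at 72 h, and its rise by 48 h was 0.49 (adjusted p = 6.33e-05). Slc2a3 averaged 11.02 ± 0.10 at 24 h, 11.46 ± 0.05 at 48 h and 11.08 ± 0.06 at 72 h. It rose by 0.44 between 24 and 48 h (adjusted p = 0.000269) and fell by 0.39 between 48 and 72 h (adjusted p = 0.00129). Its net change over the exposed course was thus 0.05 (adjusted p = 0.591), against 0.62 in controls (adjusted p = 1.53e-06), with the re-analysis tag changing between those exposed times and not between the control ones. Between 24 and 48 h 2 of 9 genes were called in exposed arrays, where 10.1% of all genes were, and between 48 and 72 h 2 of 9 (Slc2a3 and Ldha), where 10.2% were.

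Ldha fell in both courses. Its change between 24 and 72 h was -0.50 ± 0.10 in exposed embryoid bodies (adjusted p = 0.00104) and -0.56 ± 0.10 in controls (adjusted p = 0.000278). In exposed arrays the change was -0.11 by 48 h and -0.39 afterwards, and in controls it was -0.35 by 48 h and -0.21 afterwards. The difference of the exposure effects on Ldha between 72 and 24 h was 0.07 (adjusted p = 0.888). The later step in exposed arrays was not called without exposed replicate 3 of 48 h or replicate 1 or 2 of 72 h (-0.38 to -0.32), and the earlier step in controls (adjusted p = 0.0222) not without control replicate 2 or 3 of 24 h or replicate 2 of 48 h (-0.33 to -0.29).

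Bnip3 rose by 0.58 in exposed embryoid bodies (adjusted p = 0.0154) and by 0.59 in controls (adjusted p = 0.0121), or 1.50-fold and 1.51-fold. The call in exposed arrays was lost without replicate 1 of 24 h (0.53) or replicate 1 of 72 h (0.55), and the call in controls without replicate 1 of 24 h (0.49, adjusted p = 0.0634). Pdk1 rose by 0.35 in exposed arrays (adjusted p = 0.0393) and by 0.33 in controls (adjusted p = 0.0468). The Pdk1 calls were near the threshold: leaving out exposed replicate 1 of 24 h or 1 or 3 of 72 h gave 0.26 to 0.35 with no call, and leaving out control replicate 1 or 2 of either time gave 0.26 to 0.33 with no call. In all, the exposed call held in 6 of 14 alternatives and the control call in 7. Both were also lost with all probe sets, a replicate block (adjusted p of 0.0508 in exposed arrays and 0.0589 in controls) or the arrays of their own groups, and the exposed one with cyclic loess or array weights.

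Hk2 changed by -0.13 in exposed embryoid bodies over the course (adjusted p = 0.162) and by -0.20 in controls (adjusted p = 0.0378). The fall in controls was seen by 48 h, at -0.31 (adjusted p = 0.00494). The 72 h call held in 6 of 14 alternatives. It was lost without control replicate 2 or 3 of 24 h or replicate 1 or 3 of 72 h (-0.20 to -0.16), and with all probe sets, cyclic loess, a replicate block (adjusted p = 0.0513) or the arrays of those groups alone, the highest adjusted p being 0.146. Egln3 changed by -0.38 in exposed embryoid bodies (adjusted p = 0.0553) and by -0.30 in controls (adjusted p = 0.121), and Pgk1 and Pfkp by at most 0.14 in size in either, with none of these past the threshold.

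**Figure D4:**
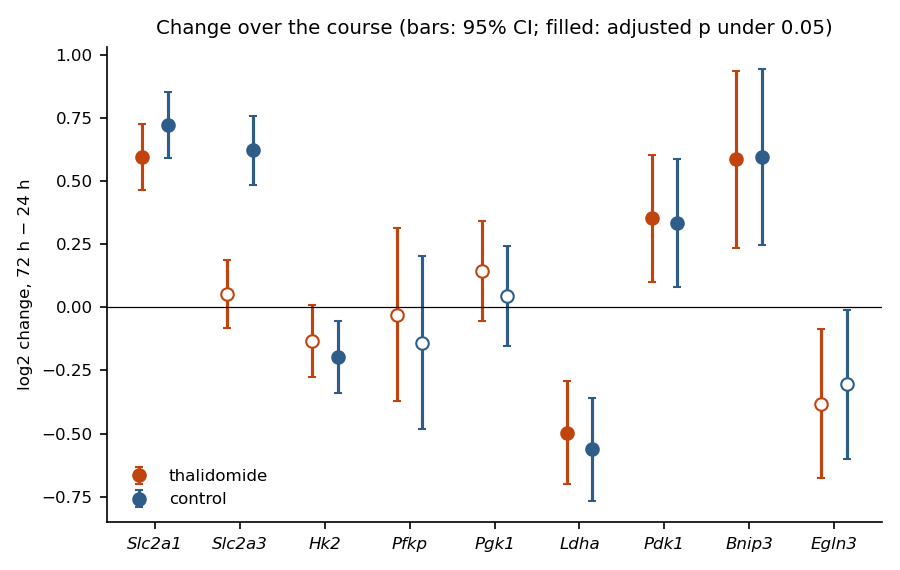
Change in log2 signal between 24 and 72 h (vertical axis) of the 9 genes (horizontal axis) in exposed and control embryoid bodies. Points are limma estimates from 3 arrays a time, bars are 95% intervals, and filled points passed an adjusted p of 0.05. The courses lie farthest apart for Slc2a3, at 0.05 in exposed and 0.62 in control embryoid bodies.

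The wider pathway changed over time in both directions. In exposed embryoid bodies 17 of 79 genes rose and 9 fell between 24 and 72 h, or 32.9%, where 25.1% of all genes were called, 14.4% as higher and 10.6% as lower. In controls 18 rose and 11 fell, or 36.7%, where 27.5% of all genes were called, 13.1% as higher and 14.3% as lower. The muscle enolase Eno3 rose by 1.44 in exposed arrays (adjusted p = 3.37e-07) and by 1.67 in controls (adjusted p = 4.34e-08), and the muscle phosphoglycerate mutase Pgam2 by 0.52 in exposed arrays and by 0.84 in controls. Both are muscle isoforms, and 5 of 6 heart muscle markers rose over the same hours in each course, their part not tested. Ldhb, the heart-type lactate dehydrogenase, fell by 0.66 in exposed arrays and by 0.79 in controls.

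Hypoxia targets did not share a direction. Of 24 measured, 7 rose and 4 fell in exposed embryoid bodies, where 14.4% of all genes rose and 10.6% fell, and 7 rose and 5 fell in controls, where 13.1% of all genes rose and 14.3% fell. Vegfa rose by 0.54 in exposed arrays (adjusted p = 1.73e-05) and by 0.80 in controls (adjusted p = 1.78e-07). The stress-induced mTOR inhibitor Ddit4 changed by -0.64 in exposed arrays and -0.92 in controls, and Ndrg1, a stress- and differentiation-regulated gene, by -0.74 in exposed arrays and -0.85 in controls. In oxygen sensing 4 of 12 genes rose and 0 fell in each course, to be read against the same shares of all genes, and the rise of Egln1 was 0.76 in exposed arrays and 0.44 in controls.

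Within groups, some of these genes deviated together from array to array. After each group's mean was taken off, the 15 pairs among Pgk1, Pdk1, Bnip3, Pfkp, Ldha and Egln3 correlated over 18 arrays at Pearson's r of 0.47 to 0.88, with a median of 0.64. The 21 other pairs of members ran from -0.38 to 0.58, with a median of 0.22, and Pgk1, Pdk1, Bnip3, Pfkp, Ldha and Egln3 correlated with all other genes at a median of -0.00. These 6 genes were picked after their values were seen, so the correlations only describe the arrays, and the points share the groups' means and each array's normalization.

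Some other glycolysis genes deviated with Pgk1 and others did not. Over the 20 other glycolysis enzymes measured, 11 correlated with Pgk1 above 0 and 9 below, with a median r of 0.17 and a range from -0.55 (Ldhb) to 0.90 (Pgam1). Of the 20 genes whose deviations most resembled those of Pgk1, 7 stand in the lists above: Slc16a3 (r = 0.91), Pgam1 (0.90), Pfkl (0.89), Tpi1 (0.89), Pdk1 (0.88), Pfkp (0.88) and P4ha2 (0.83). Pgam1, Pfkl and Tpi1 are glycolytic enzymes, and P4ha2 is a collagen prolyl hydroxylase induced by HIF. The closest were Fbxl2 (0.93) and Gpr19 (0.92), which are in none of the lists. At 72 h, for example, Pfkp lay 0.38 above its group mean in exposed replicate 3 and Pdk1 0.17 above.

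**Figure D5:**
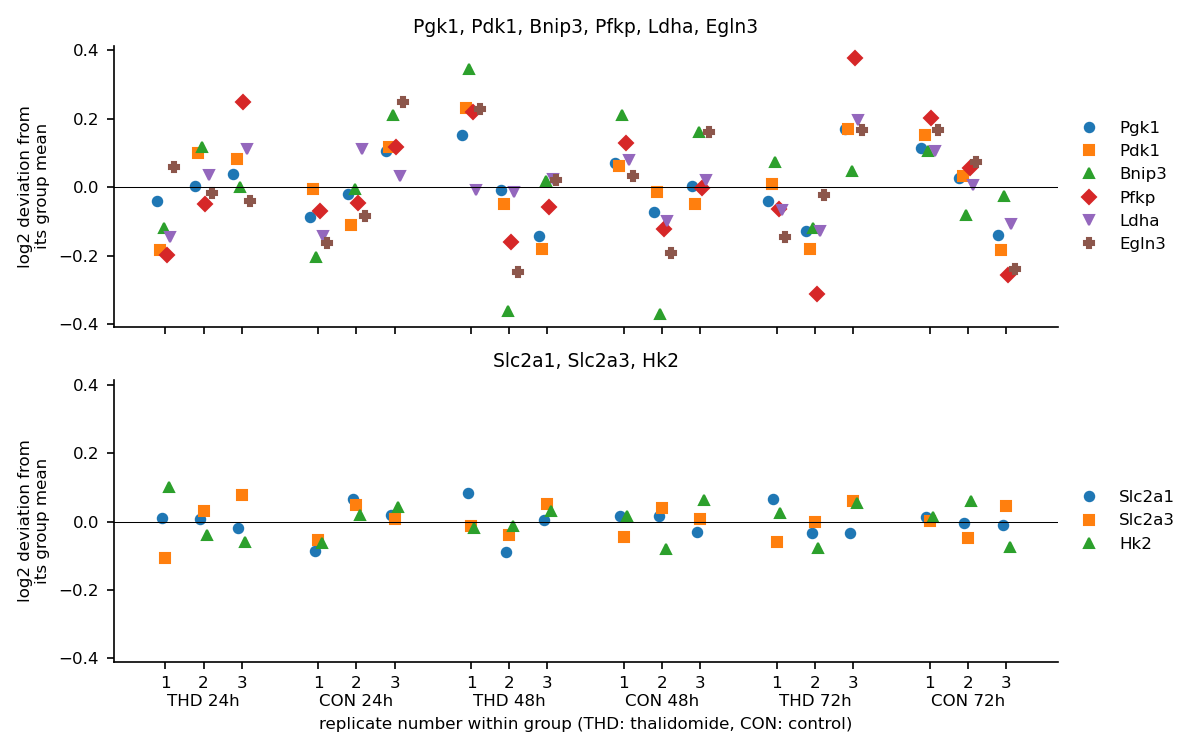
Deviation of each array from its group mean in log2 signal (vertical axis) for 6 genes (upper panel) and for Slc2a1, Slc2a3 and Hk2 (lower panel), by group and replicate (horizontal axis). Points are genes in single arrays. In the upper panel the genes of an array tend to lie on one side of 0, while the transporters and Hk2 stay within about 0.11.

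Over all 18 arrays, the genes whose signal most resembled that of Slc2a3 were Ddb1 (r = 0.92), Spon2 (0.91), Ctnna1 (0.91), Anapc5 (0.90) and Mfge8 (0.90). Ddb1 encodes the adaptor that joins cereblon, the protein thalidomide binds, to its cullin ubiquitin ligase, and its exposure changes were 0.13, 0.15 and -0.01 at 24, 48 and 72 h, none called. Mfge8, a secreted bridging protein of cell clearance, changed by 0.35 (adjusted p = 0.00367), 0.22 (adjusted p = 0.0456) and -0.02. Spon2 changed by 0.36 (limma adjusted p = 0.0220), 0.34 (adjusted p = 0.0355) and -0.01 at these times. For Anapc5 the changes were 0.20 (adjusted p = 0.0436), 0.23 (adjusted p = 0.0270) and -0.01. For Ctnna1 they were 0.17 (adjusted p = 0.0598), 0.25 (adjusted p = 0.0122) and -0.02. The nearest of the measured members to Slc2a3 was Slc2a1 (r = 0.70) and the farthest Hk2 (r = -0.82). These correlations include the shared course over time and the exposure changes, and the arrays of a group are not independent of either.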

How the data were processed

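RNA from 18 embryoid body samples was hybridised to Affymetrix arrays, 1 sample per array. Each probe set has a deposited log2 signal per array, which the authors obtained by RMA (robust multi-array averaging). The submitters' processing notes name Affymetrix Expression Console 1.3 for this step. For the genome build, the sources used here give nothing. RMA sets all arrays to nearly one distribution, so a change is relative to the other probe sets, and a shift common to most transcripts would be hidden. Detection values were not used, and precision is limited by how many arrays there are.

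Of 41345 probe sets, 23521 carried 1 gene symbol and 1814 several, which were named after none. A gene was represented by its brightest probe set, giving 22180 genes. limma 3.58.1 in R 4.3.3 fitted 1 mean per group over all 18 arrays, with 12 residual degrees of freedom and 4.35 from the prior. All tests were two-sided, with Benjamini-Hochberg adjustment over the 22180 genes within each contrast and a threshold of 0.05. Scripts were tested on simulated data. The alternatives were the mean of a gene's probe sets, all probe sets, cyclic loess, a filter on dim genes, eBayes with trend and robust options, array weights, a replicate block, the arrays of a contrast's own groups and leaving out each array.

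Members and gene lists were chosen with earlier results of these data known. Beyond the members, the text names list genes past the threshold under exposure and the 5 genes most correlated with Slc2a3. Hif1a, Vegfa, Pkm, Gapdh and Slc16a3 are always named. Some genes whose deviations resembled those of Pgk1 are named as well. Eno3, Pgam2, Ldhb, Ddit4 and Ndrg1 are examples of the course over time, which the naming rule did not cover. Promoters came from RefSeq on GRCm38.p6. No label says that a replicate number marks a shared culture or day. Deviations of same-numbered arrays correlated at -0.14 to 0.12 over 9 pairs. With 3 arrays a group this cannot show whether cultures were paired.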

Additional observations from a re-analysis of the deposited data

Results flagged for a closer look

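The thalidomide effect on Slc2a3 differed between 2 times of exposure by a direct test. Its change against control was 0.04 at 72 h and 0.61 at 24 h, a difference of -0.57 ± 0.09 (limma adjusted p = 0.0150). All exposed arrays were above all controls at 24 h, as for 9.23% of genes, and the groups overlapped at 72 h. The exposed arrays of 24 h carry the re-analysis tag and those of 72 h do not, so the tag cannot be told apart from this difference.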

How the results depend on the processing

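Over 27 alternative settings, 1728 values of single members were recomputed: 37 lost their call, 12 gained one, 0 reversed and 72 changed sign with neither value called. Counts of called members out of 9 moved as follows, and the causes were not tested. Exposure at 24 h gave 2, not 1, with trend and robust options, and at 48 h 0, not 1, with the arrays of that time alone. The change of effect between 48 and 72 h gave 1, not 0, with the dim-gene filter and with trend and robust options. That between 24 and 72 h gave 0, not 1, with its own groups' arrays, and 0 to 1 when arrays were left out. Controls between 48 and 72 h gave 1, not 0, with the dim-gene filter, trend and robust options, or array weights. Controls between 24 and 72 h gave 4, not 6, with all probe sets, a replicate block or their own groups' arrays, 5 with cyclic loess, and 4 to 5 when arrays were left out. Controls between 24 and 48 h gave 3, not 4, without replicate 2 or 3 of 24 h or replicate 2 of 48 h. The exposed course gave 1, not 2, between 48 and 72 h with its own groups' arrays, and leaving out arrays gave 1 to 2 there and 2 to 4 between 24 and 72 h.

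Whether the replicate numbers pair the arrays is not known. With a replicate block the counts for exposure stayed at 1 at 24 h, 1 at 48 h and 0 at 72 h. The block took the count between 24 and 72 h to 3, not 4, in exposed arrays and to 4, not 6, in controls. With a replicate block within time the change of effect between 24 and 72 h gave 0, not 1. With 3 arrays a group, a change of 0.33 in a variable probe set such as that of Bnip3 could not be resolved, and no level of background was available for dim ones. Cyclic loess moved the median of all genes by under 0.01.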
